A study of Homo sapiens with 2 samples.

Results

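The clustered protocadherins are cell adhesion proteins encoded by 3 gene clusters, alpha, beta and gamma, that lie next to each other on the long arm of human chromosome 5. Their levels were examined by RNA sequencing of the human embryonic kidney line HEK293, as wild-type (WT) cells and as cells without PERK (PERK-KO). PERK is a kinase of the endoplasmic reticulum membrane that phosphorylates a translation initiation factor during endoplasmic reticulum stress. Both lines were cultured for 12 h in OXPHOS medium, which holds no glucose, so that the cells make ATP by oxidative phosphorylation. The study compared the genotypes under this condition, with 1 sample of each. The PERK-KO cells were made with CRISPR and Cas9, with seeding of single cells or drug selection named for the edited lines, and how many clones entered the sequenced sample is not given in the sources used here.

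The members were all rows of the gene tables whose symbol begins with PCDHA, PCDHB or PCDHG followed by a letter or digit. There were 57 such rows among 25277, with 15 in the alpha cluster, 19 in the beta cluster and 23 in the gamma cluster. They span positions 140165876 to 140892548 of chromosome 5 in GRCh37. In 4 of them the gene is a pseudogene. Values are FPKM, fragment numbers scaled by exon length and by the mapped reads of the library, so levels can be compared between genes per length. Each value has lower and upper confidence limits that the authors' software gave, and these describe the error within 1 library and no variation between cultures. Since each genotype had 1 sample, replicate error is unknown and the genotypes were compared without a test. In the text, limits are called apart where the intervals of the samples do not overlap.

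Protocadherins of these clusters are known best from neurons, where each cell transcribes its own small set of isoforms. Each alpha and gamma isoform has its own promoter and its own long first exon, which encodes the extracellular cadherin repeats, the membrane span and the first part of the cytoplasmic tail. That exon is spliced to 3 downstream exons that all isoforms of the cluster share and that encode the rest of the tail. Beta genes have no such shared exons, and most of them have a single exon. CTCF and cohesin bring a distant enhancer to the chosen promoter. On the cell surface the isoforms form dimers that bind the same isoforms on the opposite membrane, by which a neuron recognises its own branches. C-type isoforms, at the end of the alpha and gamma clusters, are in neurons transcribed more constantly than the others.

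The shared exons decide how far a value belongs to 1 isoform. In GENCODE 44, the shared exons of the alpha cluster are 59, 89 and 2721 bases long, and those of the gamma cluster are 59, 89 and 2029 bases long. All 15 alpha members use the 2 short ones, 13 of them share the same end of the long one, and 22 gamma members use all 3. The shared exons make up a median of 53.1% of an alpha transcript and 45.6% of a gamma transcript. Fragments from them fit every isoform of the cluster, so the software had to divide them among the rows. The first shared exon of each cluster is shown to let the clusters be compared, and 39 of its 59 bases are the same in both (66.1%). In the second shared exon 29 of 89 bases are the same (32.6%).
alpha first shared exon (chr5:140358534-140358592): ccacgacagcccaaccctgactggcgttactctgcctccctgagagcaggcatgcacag
gamma first shared exon (chr5:140874374-140874432): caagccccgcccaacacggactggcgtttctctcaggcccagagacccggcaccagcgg

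Only the join between an isoform's own exon and the shared exons, and the own exon itself, can tell the isoforms apart. The joins of the isoforms on which the results turn are shown with 15 bases of their own exon in lower case and 15 bases of the first shared exon in capitals. Within a cluster the capitals are the same and the small letters differ.
PCDHA9: gattcaactgggaagCCACGACAGCCCAAC
PCDHAC2: gtttctcaaaatgagCCACGACAGCCCAAC
PCDHGA11: ccgacaagtaatcagCAAGCCCCGCCCAAC
PCDHGB1: tctttgtcttcgcacCAAGCCCCGCCCAAC
PCDHGB5: tcccatcctgagttgCAAGCCCCGCCCAAC
PCDHGC3: gcccctcccggacagCAAGCCCCGCCCAAC
PCDHGC4: ctctatgggctagagCAAGCCCCGCCCAAC

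Own exons were also searched for stretches of 50 bases that occur in another member. The C-type isoforms PCDHGC3, PCDHGC4, PCDHGC5, PCDHAC1 and PCDHAC2 had none, and neither had PCDHGB3, PCDHB1 and PCDHGB8P. Such stretches covered 1.13% of the own exon in PCDHGA11, 11.6% in PCDHGB1, 20.6% in PCDHGB5 and 33.4% in PCDHA9. The beta genes, which arose by duplication, had a median of 14.0%, and PCDHB8 had the most with 45.5%. The read length is not given in the sources used here, so values of members with such stretches are uncertain where the counting could split them.

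Few of the clustered protocadherins were on in either genotype. Taking an FPKM of at least 1 as on, 15 of the 57 were on in WT (26.3%) and 14 in PERK-KO (24.6%). Over all rows, 56% were on in WT and 56.3% in PERK-KO. In WT, 1 alpha, 11 beta and 3 gamma members were on. In PERK-KO, these numbers were 1, 8 and 5. Altogether 12 members were on in both, and 17 in at least 1 sample. The beta cluster had the most members on in both genotypes, whereas the gamma cluster held the most abundant one. The summed FPKM of all members was 87.4 in WT and 66.5 in PERK-KO.

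**Figure D1:**
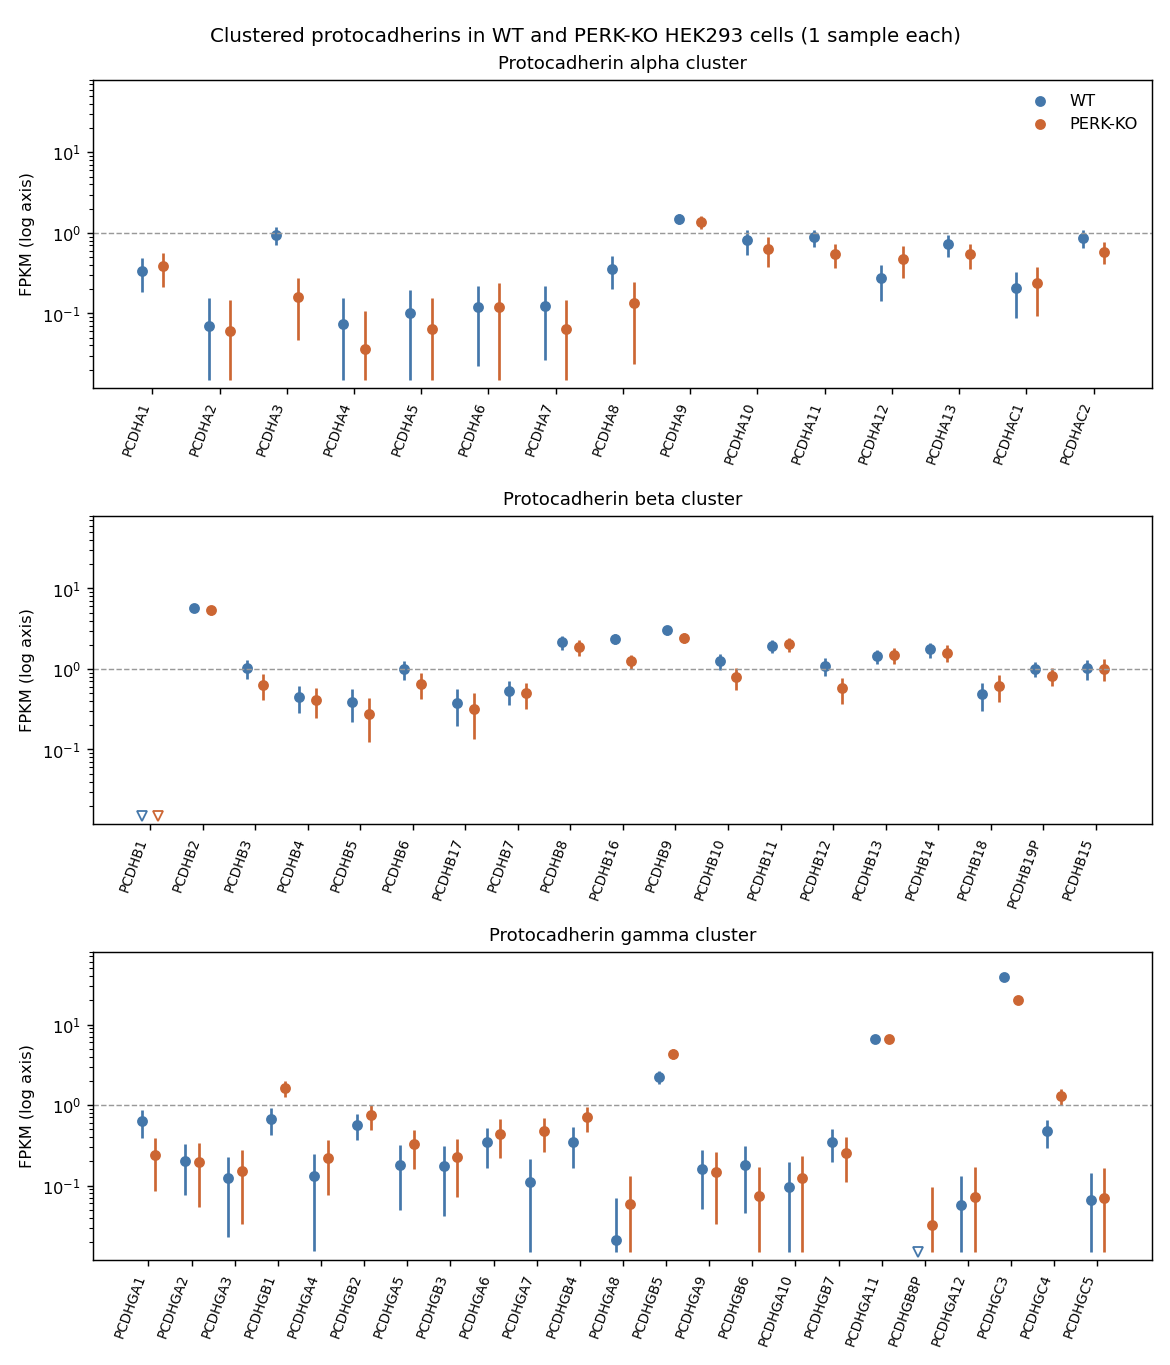
FPKM (log axis) of each clustered protocadherin in chromosomal order, in WT (blue) and PERK-KO (orange), with 1 sample each. Bars are the confidence limits of the authors' software, cut at the lower edge, open triangles mark rows listed at 0, and the dashed line is an FPKM of 1; PCDHGC3 stands above all other members in both samples.

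The order of the isoforms within a cluster was similar in both samples. Across the members, Spearman's rho between WT and PERK-KO was 0.84 in the alpha cluster (n = 15), 0.93 in the beta cluster (n = 19) and 0.89 in the gamma cluster (n = 23). These are descriptions across genes of the same pair of libraries, and rows of a cluster share exons. PCDHA9 was the most abundant alpha isoform in both samples, PCDHB2 the most abundant beta gene and PCDHGC3 the most abundant gamma isoform.

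PCDHGC3, a C-type gamma isoform at positions 140855569 to 140892546, was the most abundant clustered protocadherin in both genotypes. Its FPKM was 39.1 in WT (limits 36.6 and 41.6) and 20.0 in PERK-KO (limits 18.3 and 21.7). The limits were apart, and the value was lower in PERK-KO. The ratio of PERK-KO to WT was 0.511 (95% interval 0.461 to 0.567, from the limits of 1 library each), a log2 fold change of -0.97. The second gamma isoform in both samples, PCDHGA11, was 5.90-fold lower than PCDHGC3 in WT and 3.005-fold lower in PERK-KO. PCDHGC3 made up 74.0% of the summed gamma FPKM in WT and 52.0% in PERK-KO.

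PCDHGA11, an A-type gamma isoform, was nearly equal in both samples. Its FPKM was 6.63 in WT (limits 5.94 and 7.32) and 6.66 in PERK-KO (limits 5.93 and 7.38), with a ratio of 1.004 (95% interval 0.866 to 1.16). PCDHGC3 and PCDHGA11 use the same shared exons, and neither has many stretches of its own exon in another member.

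In PERK-KO, 3 gamma isoforms exceeded WT by more than 1.5-fold, each with its limits apart. PCDHGB5 had an FPKM of 2.22 in WT (limits 1.81 and 2.62) and 4.33 in PERK-KO (limits 3.72 and 4.94), a ratio of 1.95 (95% interval 1.56 to 2.45). PCDHGB1, also of the B type, had 0.676 in WT (limits 0.423 and 0.928) and 1.61 in PERK-KO (limits 1.26 and 1.97), a ratio of 2.38 (95% interval 1.56 to 3.65). PCDHGC4, the C-type neighbour of PCDHGC3, had 0.472 in WT (limits 0.297 and 0.647) and 1.29 in PERK-KO (limits 0.990 and 1.60), a ratio of 2.74 (95% interval 1.78 to 4.22). PCDHGB1 and PCDHGC4 passed an FPKM of 1 in PERK-KO alone, and both were above 0 in WT. PCDHGC3 and PCDHGC4, whose promoters are neighbours, had ratios on opposite sides of 1.

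The gamma cluster had a lower sum and a different make-up in PERK-KO. Its summed FPKM was 52.9 in WT and 38.5 in PERK-KO, a ratio of 0.727 (95% interval 0.676 to 0.783). PCDHGC3 was lower by 19.1 FPKM, and the other 22 members together were higher by 4.72 FPKM. Without PCDHGC3 the sum was 13.7 in WT and 18.5 in PERK-KO, so that the ratio turned to 1.34. Of these 22 members, 17 had a higher value in PERK-KO and 5 a lower one. In the whole gamma cluster, PCDHGC3 included, the limits were apart in 6 of 23 members. Of these, 3 were on in at least 1 sample and more than 1.5-fold higher, and 1 was more than 1.5-fold lower. The remaining 2 were under 1 in both samples. The shares over all rows were 7.9% higher and 5.39% lower among rows tested, and 5.93% among rows above 0 and under 1. In both samples 18 of the 23 were under an FPKM of 1. The share of all rows that were higher at any fold was not counted, so these numbers only describe the members. By type, the A isoforms had a sum of 8.69 in WT and 9.11 in PERK-KO. The B isoforms had 4.52 and 7.98, a ratio of 1.77. The C-type isoforms had 39.7 and 21.4, a ratio of 0.539. The intervals of sums treat the rows as independent, which rows with shared exons are not.

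**Figure D2:**
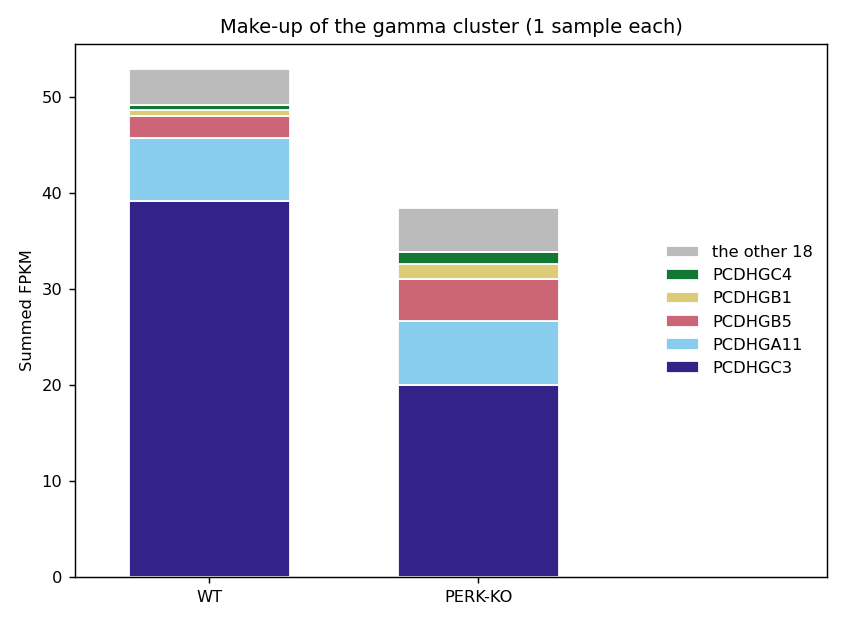
Summed FPKM of the gamma cluster in WT and PERK-KO, with 1 sample each, divided by isoform. PCDHGC3 takes 74.0% of the WT bar and 52.0% of the PERK-KO bar, and the segments of PCDHGB5, PCDHGB1 and PCDHGC4 are together 3.36 in WT and 7.23 in PERK-KO.

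The beta cluster had 11 members on in WT and 8 of these in PERK-KO. PCDHB2 was the most abundant, with 5.78 in WT (limits 5.11 and 6.46) and 5.37 in PERK-KO (limits 4.66 and 6.07). PCDHB9 followed with 3.07 (limits 2.67 and 3.46) and 2.45 (limits 2.07 and 2.82). In both genes the limits overlapped, and their ratios were 0.928 and 0.798.

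Lower values in PERK-KO with the limits apart were found for PCDHB16 and PCDHB12. PCDHB16 had 2.37 in WT (limits 2.05 and 2.69) and 1.25 in PERK-KO (limits 0.999 and 1.49), a ratio of 0.526 (95% interval 0.415 to 0.666). PCDHB12 had 1.09 in WT (limits 0.827 and 1.35) and 0.573 in PERK-KO (limits 0.370 and 0.776), a ratio of 0.525 (95% interval 0.345 to 0.799). PCDHB10 and PCDHB3 were also more than 1.5-fold lower, but their limits overlapped. PCDHB10 had 1.24 (limits 0.961 and 1.53) in WT and 0.785 (limits 0.542 and 1.03) in PERK-KO. PCDHB3 had 1.03 (limits 0.760 and 1.29) and 0.639 (limits 0.415 and 0.862). PCDHB12, PCDHB10 and PCDHB3 were the beta genes at or above an FPKM of 1 in WT and under it in PERK-KO.

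The other 5 beta genes that were on differed by less than 1.5-fold, with overlapping limits. PCDHB8 had an FPKM of 2.16 in WT (limits 1.74 and 2.57) and 1.88 in PERK-KO (limits 1.47 and 2.298). PCDHB11 had 1.92 (limits 1.57 and 2.27) and 2.03 (limits 1.64 and 2.42). PCDHB14 had 1.75 (limits 1.38 and 2.12) and 1.59 (limits 1.21 and 1.97). No order among these 3 genes can be read from the values, since their limits overlap within each sample. PCDHB13 had 1.44 (limits 1.14 and 1.74) and 1.49 (limits 1.16 and 1.81), and PCDHB15 had 1.02 (limits 0.725 and 1.31) and 1.01 (limits 0.707 and 1.32).

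Most beta values were lower in PERK-KO, but the share of all rows that were lower at any fold was not counted. Of the 18 beta members above 0 in both samples, 15 had the lower value in PERK-KO, with the limits apart in 2. Both were more than 1.5-fold lower, as were 5.39% of all rows tested with the limits apart. The summed FPKM of the beta members was 27.1 in WT and 22.7 in PERK-KO, a ratio of 0.836 (95% interval 0.775 to 0.902). PCDHB1, the first beta gene and the one farthest from the others, was listed at 0 in both samples. In the beta rows, 3 effective fragments came to a median of 0.0503 FPKM in WT and 0.0577 in PERK-KO, as estimated from the width of the limits. These are not counted reads. The GENCODE transcript matched to PCDHB1 has 7973 bases, which is longer than its deposited row at positions 140430979 to 140433512. The length on which its FPKM was computed is not known. A detection limit for PCDHB1 was therefore not obtained, and a value of 0 does not show that it is silent.

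The alpha cluster was the lowest, with a single isoform on. PCDHA9 had an FPKM of 1.51 in WT (limits 1.28 and 1.74) and 1.37 in PERK-KO (limits 1.13 and 1.60), a ratio of 0.908 (95% interval 0.725 to 1.14). It made up 20.4% of the alpha sum in WT and 25.2% in PERK-KO. The other 14 alpha isoforms were between 0.0704 and 0.951 in WT and between 0.0359 and 0.635 in PERK-KO. The C-type isoforms PCDHAC1 and PCDHAC2, which lie last in the cluster, were under 1 in both samples. The summed FPKM was 7.40 in WT and 5.43 in PERK-KO, a ratio of 0.734 (95% interval 0.636 to 0.846). Lower values in PERK-KO were listed for 11 of the 15 alpha isoforms, with the limits apart in 1. That isoform, PCDHA3, was under an FPKM of 1 in both samples. Among all rows above 0 and under 1, the limits were apart in 5.93%. The share of all rows that were lower at any fold was not counted, so these numbers only describe the members.

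Beside the changes over all rows, the members that were on divided in both directions. Of the 17 members on in at least 1 sample, 3 exceeded WT by more than 1.5-fold in PERK-KO (17.6%), against 10.1% of the 14594 rows with an FPKM of at least 1 in either sample. With the limits apart the number of members was again 3, against 7.9% of these rows. Lower by more than 1.5-fold were 5 members (29.4%), against 7.54% of rows. With the limits apart 3 members were lower (17.6%), against 5.39% of rows. With 17 members a single one makes up several percent, and rows of 1 cluster are not independent, so these shares describe the members and do not set them apart from other genes. The median log2 fold change of the 17 was -0.14, and that of all rows was 0.04.

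**Figure D3:**
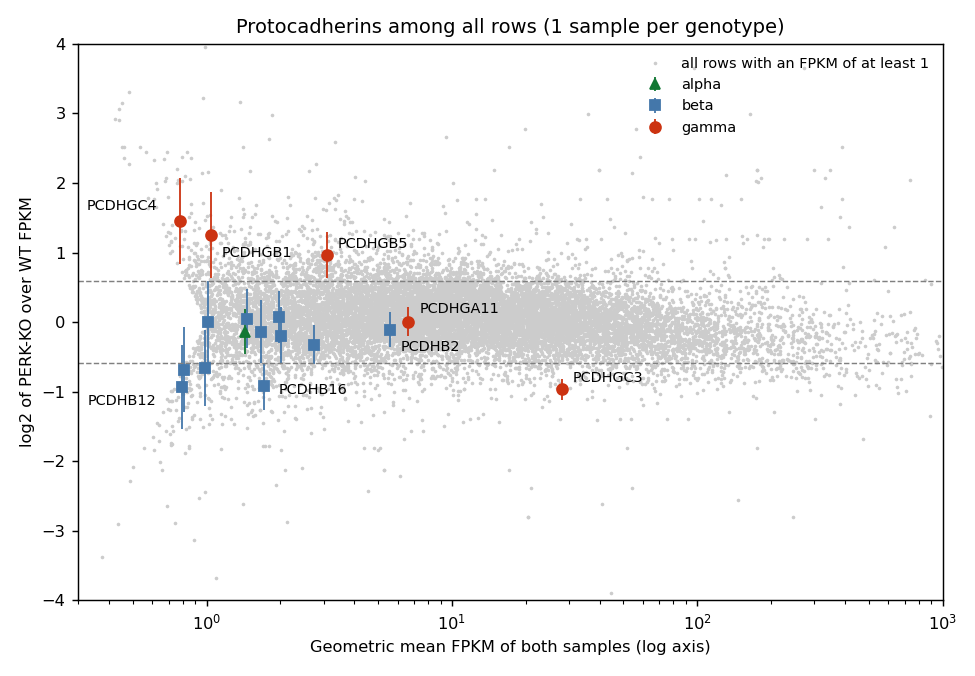
The log2 ratio of PERK-KO to WT FPKM against the geometric mean FPKM (log axis) for all rows with an FPKM of at least 1 in either sample (grey) and for the 17 clustered protocadherins among them, with 1 sample per genotype. Bars are 95% intervals from the limits of each library, dashed lines are 1.5-fold, and rows outside the axes are not drawn; PCDHGC3 lies below the lower line at a higher level than any other member, and PCDHGC4, PCDHGB1 and PCDHGB5 lie above the upper line.

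Values in PERK-KO relative to WT also moved with transcript length over all rows. Among the 200 rows nearest in length, the median log2 fold change lay between -0.02 and 0.33 at the members' lengths, with a median of 0.16. Lengths within the gamma cluster are nearly equal, so this value is 0.16 for PCDHGC3, 0.16 for PCDHGA11 and 0.15 for PCDHGC4. Subtracting it left the numbers of members past 1.5-fold at 3 higher and 5 lower.

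A further 40 members were under an FPKM of 1 in both samples, with highest values of 0.999 in WT and 0.817 in PERK-KO, both of PCDHB19P. Of these, 39 were above 0 in at least 1 sample. The limits were apart in 3 of the 39 (7.69%), against 5.93% of the 5022 rows of the same kind, so the share was near that of other rows. They are named here after their values had been seen. PCDHA3 had 0.951 in WT (limits 0.714 and 1.19) and 0.162 in PERK-KO (limits 0.0473 and 0.277), the lowest ratio of any member with its limits apart, 0.170 (95% interval 0.0816 to 0.355). PCDHGA7 had 0.112 (limits 0.00891 and 0.215) in WT and 0.471 (limits 0.261 and 0.681) in PERK-KO. PCDHGA1, the first gamma isoform, had 0.627 (limits 0.3938 and 0.859) and 0.239 (limits 0.0849 and 0.3934), with limits that only just missed each other. PCDHGB8P, a pseudogene, was listed at 0 in WT and at 0.0319 in PERK-KO.

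Promoters of these genes were read from GRCh37, from 250 bases before to 50 bases after the annotated start. Many of them, but not all, share a conserved element whose core is CGCT. Whether a match of letters in a given promoter is that element was not tested. On either strand CGCT was found in 53 of the 57 members (93.0%), but such short letters also occurred in 82.6% of 19827 promoters of the same length. The most frequent 8 letters were therefore taken within each cluster, after searches with 9 and 10 letters and over all members together had been looked at. Because they were picked from the same promoters, their frequency in members is a description. ATGTCGCT was in 10 of 15 alpha members and in 0.293% of all promoters. PCDHA9, the alpha isoform that was on, had neither ATGTCGCT nor CGCT. GTGGCGCT was in 16 of 19 beta members and in 1.58% of all promoters. GCCGCTGT was in 12 of 23 gamma members and in 2.07% of all promoters. Each contains CGCT, and none of the 3 occurred in a member of another cluster.

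For PCDHA3, the on members past 1.5-fold with their limits apart, and the most abundant beta and A-type gamma genes, the 150 bases before the start are shown 5′ to 3′ on the plus strand of GRCh37, with the 8 letters of the cluster in capitals. The starts are those of GENCODE 44 and were not measured here. The deposited row of PCDHB16 begins at position 140560980, before its window, and that of PCDHGA11 at 140800537, within its window. In these genes the bases shown lie wholly or partly inside the row.
PCDHA3 (chr5:140180492-140180641): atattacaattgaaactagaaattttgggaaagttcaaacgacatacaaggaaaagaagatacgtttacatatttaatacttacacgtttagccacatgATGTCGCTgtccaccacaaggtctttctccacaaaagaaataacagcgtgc
PCDHB2 (chr5:140474049-140474198): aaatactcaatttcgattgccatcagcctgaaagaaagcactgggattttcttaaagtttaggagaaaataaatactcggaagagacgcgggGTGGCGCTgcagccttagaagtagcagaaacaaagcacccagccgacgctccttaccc
PCDHB16 (chr5:140561812-140561961): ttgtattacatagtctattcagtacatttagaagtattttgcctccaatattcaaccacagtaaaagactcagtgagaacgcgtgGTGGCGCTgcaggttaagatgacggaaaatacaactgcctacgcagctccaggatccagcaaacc
PCDHB12 (chr5:140588141-140588290): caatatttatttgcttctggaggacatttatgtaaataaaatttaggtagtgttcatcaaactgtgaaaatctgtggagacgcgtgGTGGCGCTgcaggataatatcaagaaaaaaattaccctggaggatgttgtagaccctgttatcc
PCDHGB1 (chr5:140729516-140729665): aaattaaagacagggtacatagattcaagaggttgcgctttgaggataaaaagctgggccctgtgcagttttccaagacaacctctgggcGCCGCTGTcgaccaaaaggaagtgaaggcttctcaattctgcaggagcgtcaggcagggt
PCDHGB5 (chr5:140777364-140777513): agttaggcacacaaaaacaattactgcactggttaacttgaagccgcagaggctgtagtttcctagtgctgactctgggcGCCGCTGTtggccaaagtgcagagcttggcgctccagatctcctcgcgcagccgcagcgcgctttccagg
PCDHGA11 (chr5:140800468-140800617): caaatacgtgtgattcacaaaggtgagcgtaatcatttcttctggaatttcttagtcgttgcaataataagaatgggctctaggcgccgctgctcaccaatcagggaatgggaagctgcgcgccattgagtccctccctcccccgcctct
PCDHGC3 (chr5:140855383-140855532): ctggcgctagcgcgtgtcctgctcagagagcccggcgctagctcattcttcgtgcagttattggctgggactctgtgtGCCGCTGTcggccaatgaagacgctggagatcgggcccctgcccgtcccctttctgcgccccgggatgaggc
PCDHGC4 (chr5:140864447-140864596): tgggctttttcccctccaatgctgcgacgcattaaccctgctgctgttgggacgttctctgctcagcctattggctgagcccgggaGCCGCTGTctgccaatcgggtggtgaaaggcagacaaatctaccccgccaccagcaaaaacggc
In these windows the capitals begin 51 bases before the start in PCDHA3, 58 in PCDHB2, 65 in PCDHB16 and 64 in PCDHB12. In the gamma genes they begin 60 bases before the start in PCDHGB1, 70 in PCDHGB5, 72 in PCDHGC3 and 64 in PCDHGC4. Positions varied more in members not shown, with 241 in PCDHB17, 200 in PCDHA7, 15 in PCDHB5 and 1 in PCDHB8. In PCDHGA12 the letters begin after the start. Among the windows shown, that of PCDHGA11 has no exact match. The windows were picked by the values of their genes, and a relation between the letters and the values was not tested.

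Among genes known to act on promoter choice in these clusters, all 16 were on. They comprise CTCF, the subunits and loaders of cohesin, its release and regulatory factors WAPAL, PDS5A and PDS5B, DNA methyltransferases and the chromatin regulators SMCHD1 and SETDB1. STAG1, a cohesin subunit, was the one more than 1.5-fold higher with its limits apart, at 5.49 in WT (limits 5.01 and 5.96) and 8.94 in PERK-KO (limits 8.30 and 9.58). None was more than 1.5-fold lower. The list's median log2 fold change was 0.34, beside 0.04 over all rows, and 14 of the 16 were higher with the limits apart at any fold, as were 26.1% of all rows tested. Rows of similar transcript length had median log2 fold changes between 0.06 for RAD21 and 0.38 for SMCHD1, and the part of length in the values of this list was not tested. The most abundant was RAD21, the cohesin subunit that closes the ring, at 71.9 in WT (limits 68.3 and 75.5) and 82.4 in PERK-KO (limits 78.3 and 86.5). CTCF itself had 23.4 (limits 22.1 and 24.8) and 27.6 (limits 26.0 and 29.3).

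Among genes that act on the proteins, 1 was past 1.5-fold with its limits apart. Of all rows tested, 7.9% were higher and 5.39% were lower at the same threshold, so these numbers only describe the lists. All 8 genes of the proteases ADAM10 and ADAM17 and of gamma-secretase, which cut protocadherins at the membrane, were on, and none was past 1.5-fold with its limits apart. Their most abundant members were PSENEN, at 142 in WT and 102 in PERK-KO, and APH1A, at 102 and 106. ADAM10, the sheddase of gamma protocadherins, had 11.1 in WT (limits 10.3 and 11.9) and 15.2 in PERK-KO (limits 14.2 and 16.2). Among 16 partners of the cytoplasmic tail, which are kinases, members of the WAVE complex of actin assembly, AXIN1 and PDCD10, all were on in at least 1 sample. WASF3, a WAVE subunit, was higher with its limits apart, at 4.03 in WT (limits 3.61 and 4.45) and 6.59 in PERK-KO (limits 6.02 and 7.16). No partner was more than 1.5-fold lower with its limits apart. RET, a kinase, was more than 1.5-fold lower with overlapping limits, at 1.48 in WT (limits 1.21 and 1.74) and 0.978 in PERK-KO (limits 0.737 and 1.22). The median log2 fold change was 0.27 in the protease list and 0.15 in the list of partners, beside 0.04 over all rows. The part of transcript length in these values was not tested.

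Past 1.5-fold with the limits apart were 1 of the non-clustered protocadherins and 2 of the cadherins that were on, beside 7.9% of all rows tested that were higher and 5.39% that were lower. Of 12 protocadherins that lie outside the clusters, 6 were on. PCDH10 was higher in PERK-KO, at 1.77 in WT (limits 1.48 and 2.06) and 4.50 in PERK-KO (limits 3.9999 and 4.997), and the most abundant was PCDH9, at 7.37 and 9.24. Of 26 classical cadherins and catenins, 9 were on. CDH15, the cadherin of muscle cells, was at 0.317 in WT (limits 0.163 and 0.471) and 2.96 in PERK-KO (limits 2.46 and 3.46). CDH4 was lower in PERK-KO, at 2.85 in WT (limits 2.52 and 3.17) and 1.17 in PERK-KO (limits 0.953 and 1.38). CTNNB1, the catenin that links cadherins to actin and acts in Wnt signalling, was the most abundant of the list, at 123 and 119 with overlapping limits.

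**Figure D4:**
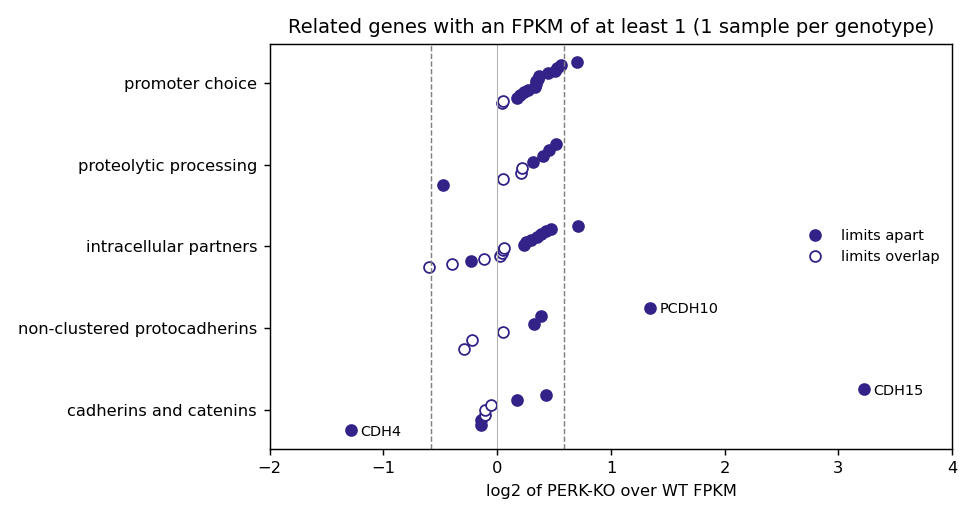
The log2 ratio of PERK-KO to WT FPKM for the genes of 5 related lists with an FPKM of at least 1 in either sample, with 1 sample per genotype. Each point is a gene, filled where the limits are apart, dashed lines are 1.5-fold, and the height within a list only separates the points; 14 of 16 genes of promoter choice are filled and to the right of 0.

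Of the genes around the clusters, 36 rows lay within 500000 bases of the members, and 27 of them were on. More than 1.5-fold lower with the limits apart were 4 rows, and 1 was higher, beside 5.39% and 7.9% of all rows tested. With 27 rows these numbers only describe the neighbours. NDUFA2, a subunit of respiratory complex I, had 174 in WT (limits 164 and 185) and 92.3 in PERK-KO (limits 85.1 and 99.4). ZMAT2 had 92.7 (limits 89.0 and 96.5) and 57.8 (limits 54.6 and 60.9). FCHSD1, on the far side of the gamma cluster, had 4.11 (limits 3.63 and 4.59) and 2.57 (limits 2.17 and 2.96). Rows of similar transcript length had median log2 fold changes of -0.47 for NDUFA2, -0.16 for ZMAT2 and 0.11 for FCHSD1. The part of length in the values of these genes was not tested. The fourth lower row, EIF4EBP3, and the higher one, the readthrough gene ANKHD1-EIF4EBP3, overlap each other and share exons, so their values cannot be told apart. TAF7, a subunit of a general transcription factor that lies between the beta and gamma clusters, had 62.4 (limits 59.9 and 64.8) and 47.7 (limits 45.5 and 50.01), a ratio of 0.765. DIAPH1, the next gene after the gamma cluster, had 29.2 (limits 27.6 and 30.8) and 34.3 (limits 32.4 and 36.1).

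EIF2AK3, the gene of PERK, had an FPKM of 5.61 in WT (limits 5.11 and 6.12) and 3.89 in PERK-KO (limits 3.44 and 4.34), a ratio of 0.693. A level over the whole transcript does not show whether the edited sequence was present. Of 6 genes known to mark HEK293 cells, 4 were on in at least 1 sample, and the libraries differed in them. IRS4 was at 0.121 in WT and 27.1 in PERK-KO, NEFM at 0.662 and 5.21, NEFL at 44.9 and 33.4, and LHX1 at 4.65 and 2.88. PAX2 was at 0.981 and 0.748, and NEFH at 0.0563 and 0.129. The fibroblast genes COL1A2, DCN and LUM and the blood cell gene PTPRC were under 0.4 in both samples. The adipocyte gene ADIPOQ was at 1.68 and 1.42, and UCP1 was listed at 0 in both. A difference between the cell lines other than PERK, such as the founding cell of a clone, cannot be told apart from the genotype with 1 sample each, and its part in the protocadherin values was not tested.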

How the data were processed

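Polyadenylated RNA of WT and PERK-KO HEK293 cells, 1 sample per genotype, was sequenced. The authors mapped reads to GRCh37/hg19 with TopHat2 (version 2.0.13, per the labels) and computed FPKM with Cufflinks (version 2.2.1) and Cuffdiff. They deposited FPKM with confidence limits per gene, without read counts, so the depth is unknown. Shared exons were divided among isoforms by that software.

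Ratios were PERK-KO over WT without a pseudocount, for rows with an FPKM of at least 1 in either sample. A 1.5-fold threshold was used. The distance from a value to its upper limit was read as 2 SD. It gave the 95% intervals of ratios and sums and an effective number of fragments, which was whole within 0.05 in only 1 of 18 beta rows in each sample, so no read numbers were recovered. These intervals and limits describe the error within 1 library and no variation between cultures. Transcript lengths, exons and promoters came from GENCODE 44 on GRCh37, matched by symbol and position, and otherwise by a reciprocal overlap of 0.7. Of the rows on, 94.1% had a length. Names were not unique (23614 distinct). Named genes were the members on in either sample, the related genes past 1.5-fold with limits apart, up to 3 most abundant ones of a list, and rows between the clusters or within 500000 bases of them, of which those past 1.5-fold with limits apart, TAF7 and DIAPH1 are given. ADAM10, CTCF, RET and the members under 1 were named after their values had been seen. The members, lists and thresholds were chosen with earlier results of these data known. Python 3.11.15 with numpy 2.4.6, pandas 2.3.3 and matplotlib 3.10.9 was used, and the calculations were tested on simulated data.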

Additional observations from a re-analysis of the deposited data

How the results depend on the processing

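Of 41 alternatives, 23 kept their direction and stayed within the margin of the limits, or within 1.5 times for a number of members. No paired analysis was possible because each genotype had 1 sample. Leaving out a replicate was likewise not possible. The number of members on was set by the threshold. At an FPKM of at least 0.5 it was 26 in WT and 26 in PERK-KO, at 0.1 it was 49 and 47, at 5 it was 3 and 3, and with a lower limit above 0 it was 50 and 47. Without a filter 9 members were more than 1.5-fold higher and 14 lower. At an FPKM of at least 5 these numbers were 0 and 1. A pseudocount of 1 left 1 lower, a 2-fold threshold left 0 lower, and limits apart left 3 lower. Subtracting the running median over length moved the ratio of the alpha sums from 0.734 to 0.642, that of the beta sums from 0.836 to 0.773, and that of the gamma sums from 0.727 to 0.650. Without PCDHGC3 the gamma ratio reversed to 1.34, since PCDHGC3 made up most of the sum. The missing replicates, the unknown depth and the division of shared exons limit what a single row can show.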
